A study of Mus musculus with 9 samples.

Results

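The arrays described here are the 3 of the series' 9 that are titled Scrambled. They hold RNA of 3T3-L1 cells, a clonal mouse fibroblast line that is turned into fat cells in culture, which were infected after maturation with lentivirus carrying a scrambled control hairpin. Per the labels' protocols the mature cells went through 3 to 4 rounds of infection and at least 8 days of selection in 5 µg/ml puromycin, so the profile is that of transduced and drug-selected adipocytes, and no array of cells without virus is used here. The other 6 arrays carry the same treatment with hairpin 1 or hairpin 2 against Ebf1, 3 arrays each, and serve below only to place the scrambled levels. The stated purpose of the series was to find the functional targets of Ebf1, a transcription factor of fat cells. The targeted mRNA read 10.12, 10.15 and 10.31 on the scrambled arrays, against means of 9.44 ± 0.11 with hairpin 1 and 8.94 ± 0.24 with hairpin 2 (log2, SD, n = 3). Nothing in the labels says whether the numbered repeats of a group were separate cultures, so p-values measure only the spread between these arrays, and that spread may be technical.

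White adipocytes store fatty acids as triglyceride. They take fatty acids from lipoproteins with lipoprotein lipase, carry them in the cytosol on fatty acid binding proteins, build new ones from glucose under the control of insulin, and wrap the fat in droplets coated by perilipins. PPARγ and the C/EBP factors switch this programme on, and the finished cell secretes hormones such as adiponectin and leptin. 3T3-L1 cells are the classical model of this process and lack the vessels, nerves and immune cells of fat tissue.

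Where several probe sets read a gene, the one whose 9-array mean was highest was taken, which left 18193 genes. The 3 scrambled arrays agreed closely, with Pearson correlations of 0.9987 to 0.9988 and Spearman correlations of 0.9975 to 0.9977 across genes, which are not independent replicates. Gene levels had a median of 7.36, a 90th percentile of 11.49 and a 99th percentile of 13.67 on the log2 scale. The probes of different genes bind with different strength, so a rank here is a place in the order of array signals and not an order of mRNA abundance. Levels also differed between probe sets of the same gene. The median distance between the highest and the lowest was 2.65 log2 units among the 6825 genes above background with several probe sets. What part of this distance is binding strength was not tested. Place along the transcript enters too: the 3′ and 5′ control probe sets of Pcx differed by 4.37 to 4.58 on these arrays.

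Background was read from 77 olfactory, vomeronasal and taste receptor genes, which are known from sensory cells of smell and taste. Their levels had a median of 4.94 and ran from 4.19 to 6.95. The 95th percentile of these genes was 6.24, 6.21 and 6.32 on the 3 arrays, and a gene over it on all 3 is called above background below. This held for 10959 genes, or 60.2%, which is the share to read every count below against. A further 6775 genes were over it on no array and 459 on 1 or 2. By level, 6327 genes read under 6, 3711 between 6 and 8, 3795 between 8 and 10, 3117 between 10 and 12, 1148 between 12 and 14 and 95 at 14 or more.

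**Figure D1:**
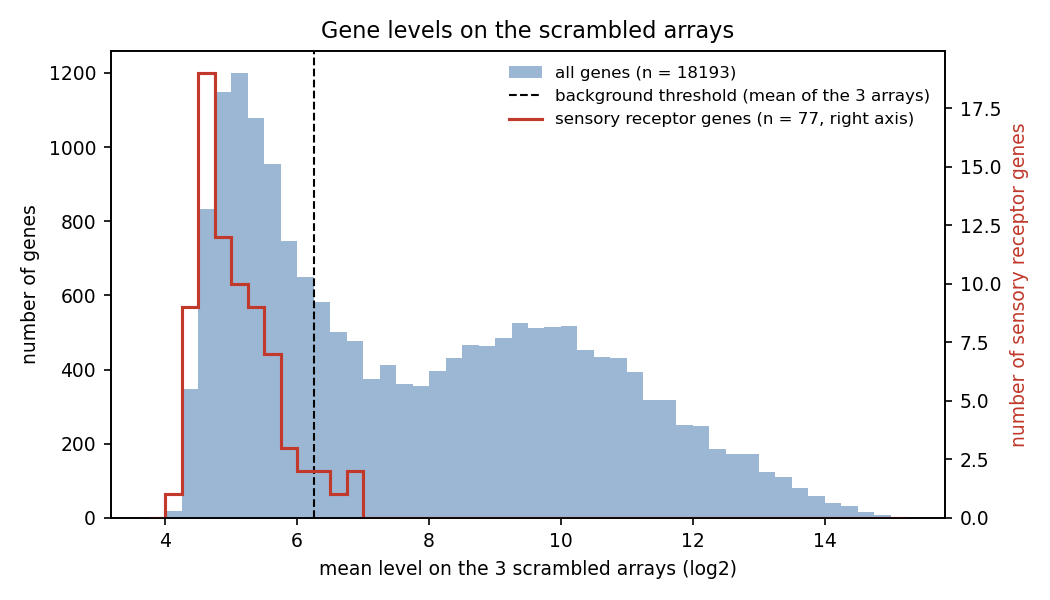
Number of genes (left axis) by mean level on the 3 scrambled arrays (log2, bins of 0.25), with the 77 sensory receptor genes drawn as a red outline on the right axis. The dashed line is the mean background threshold, and the sensory genes lie between 4.19 and 6.95, on the left peak of the distribution.

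The adipocyte label was checked against marker genes. Of 10 adipocyte markers 8 were measured, and all 8 were above background, the lowest of them Cebpa at 11.20 ± 0.10 (n = 3), in the 87.8th percentile of all genes. Adipoq, the hormone adiponectin, read 14.82, 14.84 and 14.80 on the 3 arrays. Fabp4, the fatty acid binding protein of adipocytes, read 14.87, 14.93 and 14.88, and Lpl, lipoprotein lipase, 14.72, 14.72 and 14.69. These 3 genes stood at ranks 5, 3 and 10 of all 18193. Pparg, the receptor that drives adipocyte formation, read 13.46, 13.47 and 13.56, at rank 236. The markers Plin1 and Cfd are not analysed here.

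Markers of other cell types lay mostly at background. Of 10 endothelial markers only Kdr was above it, at 6.79 ± 0.15, while Pecam1 and Cdh5, the adhesion proteins of vessel lining, read 5.13 ± 0.11 and 5.54 ± 0.087. Of 15 macrophage and leukocyte markers 6 were above it, yet Ptprc, the CD45 antigen of all blood leukocytes, read 4.76 ± 0.11, and the macrophage antigens Itgam and Adgre1 read 4.79 ± 0.093 and 5.28 ± 0.081. Laptm5, a lysosomal protein of leukocytes, was the highest of the 6 at 10.48 ± 0.59, but through 1 probe set only. The other 4 probe sets of Laptm5 had means between 5.05 and 5.81, and none of them was over the threshold on any array. Cd14, which binds lipopolysaccharide, read 9.02 ± 0.040, and Cd74, Cd79a, Csf1r and Cd3e lay between 6.33 and 7.52. Of the 10 epithelial markers 5 were above background, with Epcam the highest at 7.33 ± 0.16, followed by Krt18, Esrp1, Krt5 and Cldn3. The counts were 2 of 10 for skeletal muscle (Acta1 8.17 ± 0.094 and Ckm), 3 of 8 for bone and cartilage (Comp, Sox9 and Sp7), 2 of 10 for neurons (Rbfox3 and Mbp) and 4 of 9 for hepatocytes (Cyp2e1 8.77 ± 0.069, Hnf4a, Tat and Ttr). The other probe set of Ckm read 5.94 ± 0.026 and was over the threshold on no array. Alb, the albumin of hepatocytes, read 5.36 ± 0.016. Each of these 7 shares was under the 60.2% of all genes. RNA came from whole cultures, so a low level cannot tell few expressing cells from little RNA in each cell.

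The 40 highest levels mixed genes of the fat cell with genes that all cells use. Fth1, the iron store ferritin heavy chain, came first at 14.92, 14.96 and 14.94. Scd1, the desaturase that makes oleic acid, was next at 14.88, 14.92 and 14.92, followed by Fabp4, B2m, Adipoq and Ifi27l2a. Further fat cell genes among the 40 were Lpl, Fabp5, a second fatty acid binding protein, and Rarres2, the adipokine chemerin, at 14.54, 14.53 and 14.55. Genes of the immune response stood beside them: B2m, H2-K1 and H2-D1, the chains of MHC class I, and Ifi27l2a, Ifit3, Ly6e and Ifitm3, which interferon induces. Matrix genes were Col1a2, the second chain of type I collagen, Sparc and Igfbp7. The rest were mainly genes of translation (Eef1a1, Tpt1, Rplp2, Rps28, Rpl37a, Rps2, Rps29, Rps18 and Fau), of the respiratory chain (Cox6a1, Uqcrb, Cox5b, Atp5b and Cox4i1) and of the cytoskeleton (Tmsb10 and Actb), together with Itm2b, Lgals1, Lrpap1, Prnp, Mgst1, Npc2 and the nuclear RNA Malat1.

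Neighbours in this order were not resolved. The median gap between them was 0.0086 log2 units, none of the 39 gaps was over 0.1, and the SD over the 3 arrays had a median of 0.020. A gene of the 40 moved by a median of 3 places between its best and its worst array and by at most 15. Of the 40 genes 7 held the same value on at least 2 arrays, and Atp5b on all 3; such ties were in 9 of the 100 highest genes and in 9.39% of all genes. Among the 100 highest genes of each array, 90 were common to all 3 arrays and 109 were among the 100 on at least 1. The last of the 100 read 13.99 and the next gene 13.98, so the limit of 100 falls at no step. Of the 100, 17 rest on probe sets whose identifiers mark possible binding to other transcripts (the suffix x), and paralogs such as H2-K1 and H2-D1 may share signal. Another 9, Fth1 among them, rest on probe sets with the suffix s, which can match several transcripts.

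**Figure D2:**
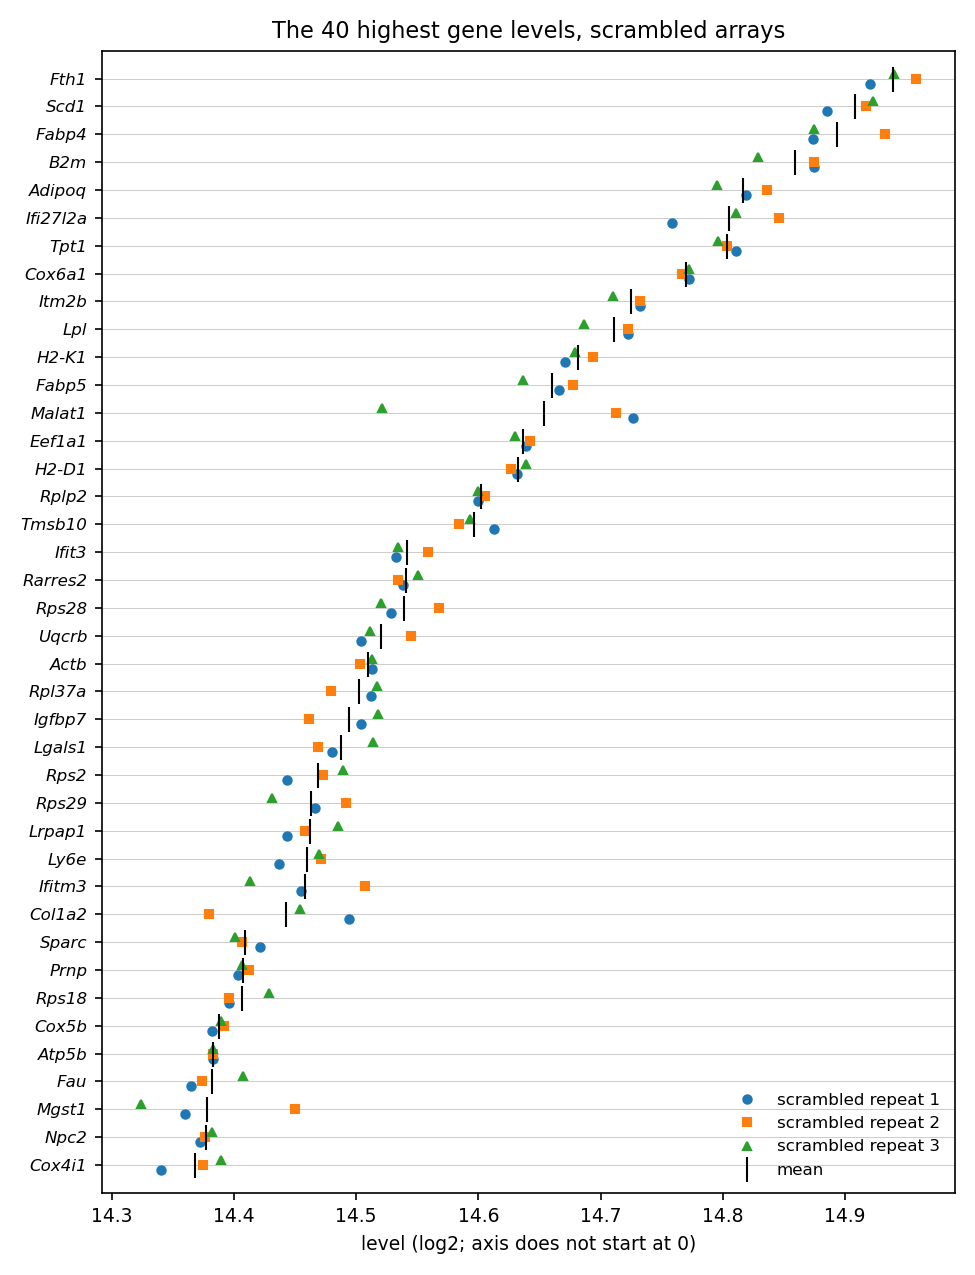
Level (log2) of the 40 genes with the highest mean on the scrambled arrays, with 1 point per array and a bar at the mean; the axis starts above 14 to show the spread. All 40 means lie between 14.37 and 14.94, and the points of neighbouring genes overlap.

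By symbol, ribosomal protein genes held 22 of the 100 highest places and the genes of the respiratory chain and ATP synthase 13. The gene lists used below, 29 in all with 605 measured genes, contained 55 of the 100 highest and 168 of the 500 highest.

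Among secreted factors of fat cells, 15 of 20 measured were above background, with a median in the 85.1st percentile. After Adipoq and Rarres2 came the apolipoprotein Apoc1 at 13.98 ± 0.053. Nampt, an enzyme of NAD synthesis that is also secreted, read 12.91, 12.91 and 12.91, and Angptl4, an inhibitor of lipoprotein lipase, 12.82 ± 0.021. Retn, the mouse adipocyte hormone resistin, read 12.65 ± 0.090, and Agt, the precursor of angiotensin, 12.40 ± 0.10. Vegfa, the vascular growth factor, was less even, at 11.62, 12.11 and 11.62. In contrast Lep, the hormone leptin, read 5.12, 5.08 and 5.23, which is background on all 3 arrays. Fgf21, Lcn2 and Rbp4, further secreted proteins of fat, were at background too, at 5.79 ± 0.062, 4.74 ± 0.22 and 4.60 ± 0.099. Each of these 4 genes is read by 1 probe set, and a silent gene cannot be told from a probe set that binds poorly.

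Genes of fatty acid uptake and of the lipid droplet had a median in the 95.3rd percentile, and 25 of 29 were above background. Behind the binding proteins and Lpl stood the caveolins Cav2 (14.06 ± 0.085) and Cav1 (13.86 ± 0.0019), which form the membrane pits of adipocytes, and the fatty acid receptor Cd36 (13.83 ± 0.0059). Of the perilipins, Plin2 read 14.04 ± 0.052 and Plin4 13.45 ± 0.049, whereas Plin5, the perilipin of oxidative tissues, read 5.84, 5.58 and 5.80, at background. The droplet protein Cidec and the lipases Lipe and Pnpla2 read 13.22 ± 0.047, 13.11 ± 0.15 and 12.44 ± 0.15. At background were also Fabp3, the binding protein of muscle, at 5.93 ± 0.21, Gpihbp1, which holds lipoprotein lipase on the vessel wall, at 5.61 ± 0.020, and the lipoprotein receptor Vldlr at 5.34 ± 0.13.

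Lipid synthesis stood still higher on the array, with 23 of 24 genes above background and a median in the 97.0th percentile. Scd2, the sister of Scd1, read 14.17 ± 0.029 and Thrsp, a small protein tied to lipogenesis, 14.36 ± 0.027. Fasn, which builds palmitate, read 13.81, 13.78 and 13.85, and Agpat2 and Gpd1, which serve the glycerol backbone of triglyceride, 13.85 ± 0.070 and 13.69 ± 0.057. Acaca, the carboxylase that feeds Fasn, read 10.98, 10.98 and 11.03, and the elongase Elovl6 7.77 ± 0.22. Mlxipl, the glucose-sensing factor ChREBP that turns on lipogenic genes, was the 1 member at background, at 5.32, 5.34 and 5.34. All 17 measured genes of cholesterol synthesis and its control were above background, from the regulator Srebf2 at 9.82 ± 0.061 to Msmo1, a sterol oxidase, at 13.62 ± 0.079.

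Of the 29 transcription factors of adipocyte formation, 25 were above background, with a median in the 76.4th percentile. Klf9 was the highest at 13.54, 13.49 and 13.52, next to Pparg. Cebpb, an early factor of differentiation, read 12.81 ± 0.063, Srebf1, which controls lipogenic genes, 12.59 ± 0.018 and Cebpa 11.10, 11.19 and 11.30. Klf15 and the glucocorticoid receptor Nr3c1 read 11.68 ± 0.044 and 11.63 ± 0.036. At background were Ppara, the receptor of oxidative tissues, Egr2, Gata3 and Klf5, with levels of 5.22 to 5.61; Egr2 and Klf5 are known for the early hours of differentiation and Gata3 for preadipocytes.

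Genes of heat-producing fat were mostly at background, with 6 of 15 above it and a median in the 31.3rd percentile. Ucp1, the uncoupling protein of brown and beige fat, read 5.28, 5.16 and 5.28. Dio2, Elovl3 and the brown fat marker Zic1 read 5.13 ± 0.040, 4.84 ± 0.046 and 4.42 ± 0.045. The 6 above background were Ppargc1a, the coactivator of mitochondrial genes, at 11.74 ± 0.037, the cytochrome oxidase subunits Cox8b (11.43, 11.69 and 11.72) and Cox7a1 (9.51, 9.92 and 9.89), Cidea (7.48, 8.06 and 7.87), Ebf2 and Prdm16. Ebf2 and Prdm16 lay just over the threshold, at 6.95 ± 0.017 and 6.63 ± 0.12. The other probe sets of Ebf2 had means of 5.27 and 5.77 and were over the threshold on no array.

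The insulin pathway was represented from receptor to transporter, with 18 of 21 genes above background. Insr, the insulin receptor, read 10.47, 10.58 and 10.42. Irs1, the adaptor beneath it, read 13.53, 13.52 and 13.52, the kinase Akt2 11.96 ± 0.11, and the insulin-responsive glucose transporter Slc2a4 11.44, 11.62 and 11.71. Irs3, an adaptor found in rodent fat, was at background at 4.83 ± 0.068, as were Grb10 and the kinase subunit Pik3cb.

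Genes of energy metabolism ranked high, as lipid synthesis did. All 42 genes of the respiratory chain were above background, and 40 of them were over the 90th percentile of all genes, with a list median in the 98.8th. Cox6a1 read 14.77 ± 0.0032 and the ATP synthase subunit Atp5b 14.38 on each array, and Cox7c was the lowest at 8.48, 8.48 and 8.16. Fatty acid oxidation had 19 of 20 genes above background, led by Hadh, Acadm and Acadl, the dehydrogenases of the cycle, at 13.92 ± 0.025, 13.67 ± 0.037 and 13.56 ± 0.045, with only the peroxisomal enzyme Ehhadh at background, at 5.36 ± 0.065. All 25 genes of glycolysis and the citric acid cycle were above background, from the hexokinase Hk1 at 9.70 ± 0.033 to the malate dehydrogenases Mdh1 and Mdh2 at 14.15 ± 0.032 and 14.13 ± 0.047.

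Ribosomal proteins gave a measure of what a low level can mean. Of the list's 32 measured genes 27 were over the 90th percentile, but Rps27 read 8.79 ± 0.022, Rpl14 7.57 ± 0.087 and Rps16 4.74, 4.69 and 4.68, which is background. Every cell with working ribosomes uses Rps16, and its single probe set was not over the threshold, so a level at background does not by itself show that a gene is silent.

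Genes of preadipocytes and fibroblasts were also read. In RNA of whole cultures their levels cannot tell adipocytes from cells that had not differentiated. Of 22 preadipocyte and fibroblast genes 17 were above background, with a median in the 72.1st percentile. The calcium-binding protein S100a6 and the filament protein Vim read 13.70 ± 0.036 and 13.65 ± 0.071, and the receptors Pdgfrb and Pdgfra 11.54 ± 0.13 and 10.47 ± 0.24. Dlk1, which keeps preadipocytes from differentiating, read 9.47 on each of the 3 arrays. The other probe set of Dlk1 read 6.13 ± 0.075 and was over the threshold on no array. Cd34, a progenitor antigen, and Fap, a protease of activated fibroblasts, were at background at 4.70 ± 0.034 and 5.29 ± 0.032. The median SD of this list, 0.124, was the largest of the 29 lists, against 0.063 for all genes above background.

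Matrix genes ranked high, with 28 of 30 above background and a median in the 93.6th percentile. Col1a2 read 14.49, 14.38 and 14.45, and Sparc, a collagen-binding glycoprotein, 14.42, 14.41 and 14.40. The proteoglycan Bgn and the collagen Col3a1 read 14.29 ± 0.012 and 14.26 ± 0.020. Col1a1, which joins Col1a2 in type I collagen, read only 9.03 ± 0.076, and the levels of the 2 chains cannot be compared because each has its own probes. By symbol, 23 of 42 collagen genes were above background. Of 24 cytoskeletal genes 23 were above it, and Cnn1, a marker of smooth muscle, was not, at 5.31 ± 0.075.

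Genes of the interferon-induced list ranked high. All 36 measured members of the list were above background, with a median in the 94.1st percentile and 24 of them over the 90th. This holds for the chosen list: taken by symbol, 15 of 20 Ifit, Ifitm and Oas genes were above background. Ifitm1, Ifitm5, Ifitm7, Oas1f and Oas1h were over the threshold on no array. Ifi27l2a read 14.76, 14.85 and 14.81, and Ifit3, an antiviral protein that binds foreign RNA, 14.53, 14.56 and 14.53. Rtp4 and Bst2, also called tetherin for holding budding virus at the membrane, read 14.02 ± 0.030 and 13.96 ± 0.030. Rsad2, the antiviral enzyme viperin, Ifit1 and Usp18, which removes the modifier ISG15 and damps the receptor, read 13.92 ± 0.063, 13.81 ± 0.057 and 13.67 ± 0.026. The lowest were Oas3 at 7.36, 6.99 and 6.95 and Oasl1 at 7.42, 7.16 and 7.05, both nucleic acid responders of the oligoadenylate synthetase family.

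Antigen presentation by MHC class I, which interferon also raises, had all 16 measured genes above background and a median in the 97.0th percentile. B2m read 14.87, 14.87 and 14.83, H2-K1 14.67, 14.69 and 14.68, and H2-D1 14.63, 14.63 and 14.64. The lowest were Nlrc5, the activator of class I genes, at 10.53 ± 0.043 and the trimming peptidase Erap1 at 10.70 ± 0.0087. The peptide transporters Tap1 and Tap2 read 10.86 ± 0.13 and 11.33 ± 0.11.

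The interferons themselves gave little signal. Ifna1, Ifna2, Ifna4 and Ifng were at background, with means of 4.70 to 5.97. Ifnb1, the interferon made by most cell types, read 6.06, 6.66 and 6.64, over the threshold on 2 arrays of 3. Of the machinery on either side, the receptor chains Ifnar2 and Ifnar1 read 12.90 ± 0.049 and 10.39 ± 0.042, the kinase Jak1 11.38 ± 0.054, the RNA sensor Tlr3 10.77 ± 0.047 and the adaptor Mavs 11.12 ± 0.17. Cgas and Sting1, which sense DNA in the cytosol, lay near the threshold at 7.11 ± 0.069 and 6.81 ± 0.19, and Tlr7 was at background.

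Chemokines and inflammatory genes were divided, with 19 of 28 above background, near the share of all genes, and a median in the 50.1st percentile. Ccl5, which draws T cells and monocytes, read 13.89, 13.78 and 13.86, and Cxcl10, a chemokine that interferon induces, 12.75, 12.51 and 12.64. Nfkbia, the inhibitor of NF-κB, read 12.85 ± 0.079, and the stromal chemokine Cxcl12 12.80 ± 0.10. Ptgs2, the inducible cyclooxygenase, Cxcl2, Icam1 and Csf2 were at background, with means of 4.58 to 5.68.

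The promoters of some of these genes carry the interferon-stimulated response element, a short DNA element known from genes that interferon induces. Its core was searched as GAAA, 2 bases of any kind and GAAA, on both strands, in the 250 bases before the start of 14368 of the 18193 genes, from a RefSeq table on GRCm38.p6. The core was in 11 of 27 interferon-induced genes with a promoter in the table, or 40.7%, against 2.64% of all. It was in 5 of 74 of the 100 highest genes (6.76%) and in 4 of 28 ribosomal protein genes. It was in 1 of 14 antigen presentation genes, that of B2m. The 379 genes that held it had a median in the 52.7th percentile and the other 13989 in the 52.0th, while the 500 highest genes held it in 20 of 420 promoters (4.76%). The promoters of 5 high genes of the interferon and class I lists that hold the core are shown as the 160 bases before the start, 5′ to 3′ on the gene's strand, with each match or its reverse complement in capitals; the start of the first match lies 139 bases before the gene's start in B2m, 156 in Ifit3, 130 in Bst2, 120 in Rsad2 and 104 in Ifit1. Within these 160 bases Ifit3, Bst2 and Ifit1 hold 2 matches each, which overlap in Bst2. For the promoters shown, matches further upstream are not counted, and the distances cover the printed bases only.
B2m, chr2:122147527-122147686, plus strand: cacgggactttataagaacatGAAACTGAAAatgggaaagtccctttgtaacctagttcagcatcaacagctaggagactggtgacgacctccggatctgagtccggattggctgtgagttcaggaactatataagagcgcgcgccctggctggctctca
Ifit3, chr19:34583369-34583528, plus strand: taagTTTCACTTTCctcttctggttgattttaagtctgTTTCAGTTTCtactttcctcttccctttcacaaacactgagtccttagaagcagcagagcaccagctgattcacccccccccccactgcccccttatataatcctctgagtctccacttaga
Bst2, chr8:71537473-71537632, minus strand: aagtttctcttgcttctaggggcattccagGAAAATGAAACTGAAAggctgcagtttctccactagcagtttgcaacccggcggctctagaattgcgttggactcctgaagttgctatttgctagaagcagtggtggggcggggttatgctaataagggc
Rsad2, chr12:26456453-26456612, minus strand: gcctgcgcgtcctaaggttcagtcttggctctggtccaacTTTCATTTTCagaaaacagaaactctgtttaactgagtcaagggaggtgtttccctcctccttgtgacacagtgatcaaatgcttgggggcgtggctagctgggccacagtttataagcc
Ifit1, chr19:34640729-34640888, plus strand: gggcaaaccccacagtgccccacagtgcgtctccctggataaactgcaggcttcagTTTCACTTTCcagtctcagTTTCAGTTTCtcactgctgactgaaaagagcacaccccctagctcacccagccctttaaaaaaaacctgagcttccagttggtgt

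A fat cell promoter is given beside them for contrast. That of Adipoq holds no such core in its 250 bases. Capitals mark the CCAAT box, a common promoter element searched as CCAAT on both strands, which the printed 160 bases hold 3 times.
Adipoq, chr16:23146376-23146535, plus strand: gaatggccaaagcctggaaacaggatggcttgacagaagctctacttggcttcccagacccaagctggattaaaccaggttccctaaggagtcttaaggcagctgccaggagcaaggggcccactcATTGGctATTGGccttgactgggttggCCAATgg
The CCAAT box was in 35.7% of all promoters and in 37.8% of those of the 100 highest genes. The other motifs searched were TATAAA, in 9.01% and 10.8%, the GC box GGGCGG, in 50% and 59.5%, and the EBF site as TCCC, 2 bases of any kind and GGGA, in 0.926% of all, 0 of 74 of the 100 highest and 3 of 420 of the 500 highest. The motifs and the promoters shown were picked after the levels had been seen, and a match is a run of letters and not a shown binding site.

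Genes of protein folding and of oxidant defence ranked high. All 18 genes of endoplasmic reticulum stress were above background, with a median in the 94.6th percentile: the chaperone Hspa5 read 13.96 ± 0.014 and the stress factors Atf4 and Ddit3 12.66 ± 0.048 and 12.50 ± 0.048. Of 23 genes of oxidant defence 22 were above it, led after Fth1 by the dismutase Sod1 at 14.34 ± 0.027 and the peroxidase Gpx4 at 14.16 ± 0.020, while the secreted peroxidase Gpx3 was at background at 5.63 ± 0.064.

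Genes of cell division and of its arrest differed in place. The 27 cell cycle genes had a median in the 51.7th percentile, with 22 above background. Ccnd2 was the highest at 13.91, 13.93 and 13.93 and Pcna, the clamp of DNA replication, read 12.45 ± 0.060. The proliferation marker Mki67 read 6.56, 6.39 and 6.56, just over the threshold. Mitotic genes were divided: Cdk1, Cdc20 and Aurka were above background, at 9.50 ± 0.047, 7.89 ± 0.12 and 6.42 ± 0.065. Bub1, Aurkb, Birc5 and Ccnb2 were at background, as was Tyms, which makes thymidylate for DNA. The 18 genes of arrest and p53 had a median in the 83.3rd percentile, with 16 above background. Mdm2, the ubiquitin ligase of p53, read 14.26, 14.20 and 14.28, and the cyclin kinase inhibitors Cdkn2c, Cdkn2a and Cdkn1a read 13.18 ± 0.083, 12.18 ± 0.23 and 10.97 ± 0.041. Cdkn1c, a further inhibitor, was at background at 5.01 ± 0.069.

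**Figure D3:**
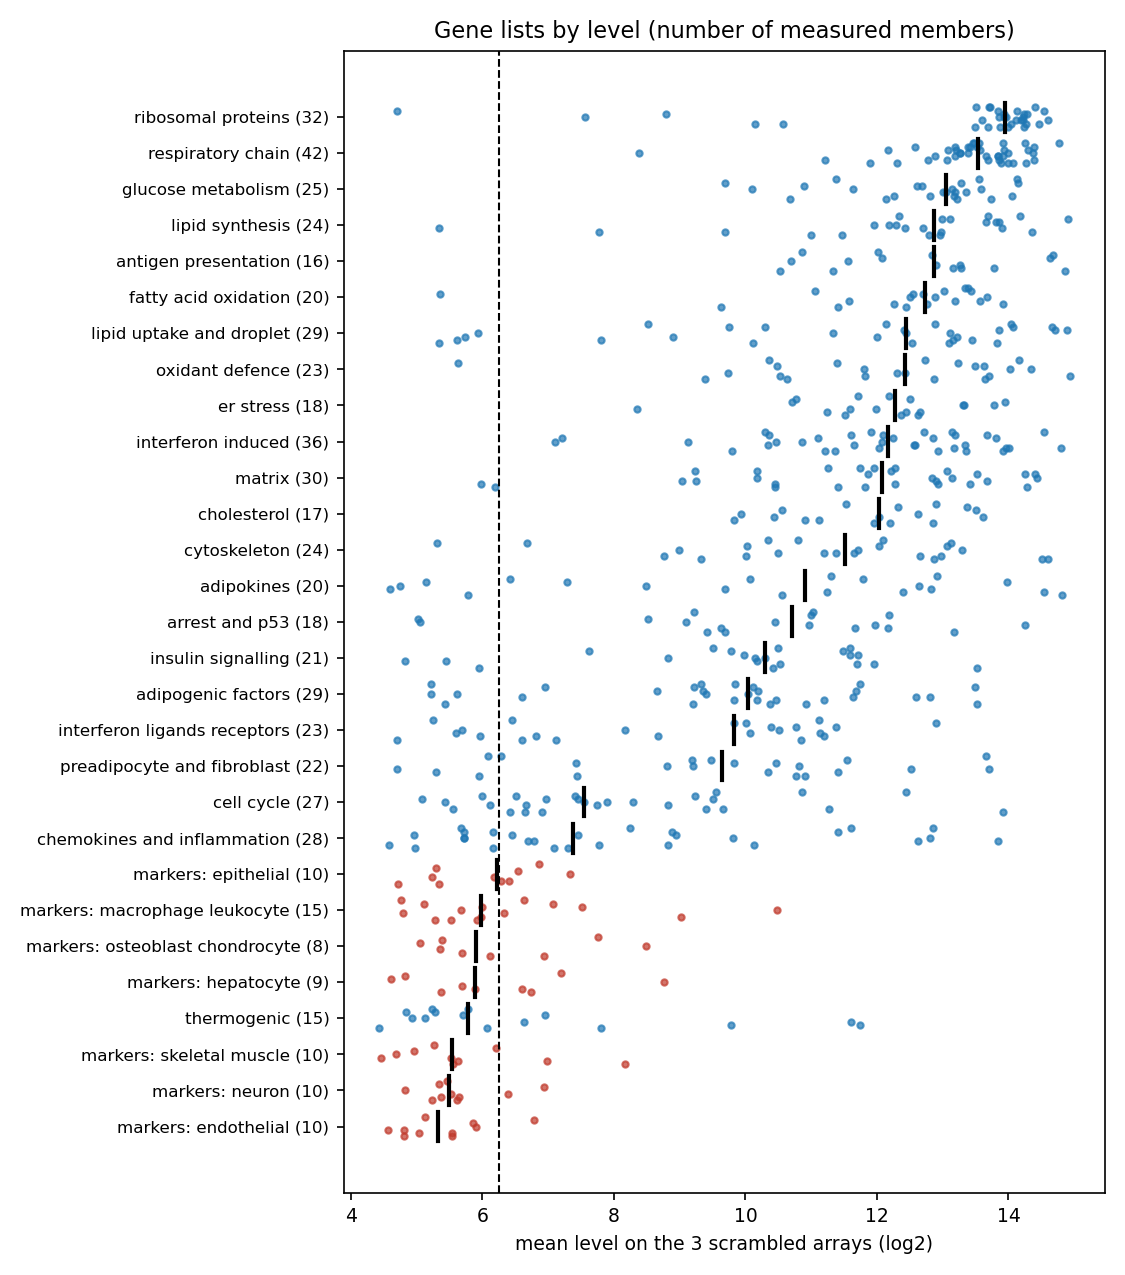
Mean level (log2) of each measured member of the 29 gene lists on the scrambled arrays, with a black bar at the list's median and the number of members in brackets; red points are markers of other cell types and the dashed line is the background threshold. Ribosomal and respiratory chain genes lie at the top, and the marker lists of other cell types and the thermogenic list lie at the bottom.

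Families were also taken by symbol; they were set after the levels had been seen and carry no test. Of 42 nuclear receptors 29 were above background, against 60.2% of all genes, led by Pparg, Nr1d2, a repressor of the circadian clock, at 11.90 ± 0.053, and Nr3c1. Of 9 prostaglandin receptors 2 were above it, Ptgfr, the receptor of prostaglandin F, at 9.88 ± 0.031 and Tbxa2r at 7.04 ± 0.031. The adiponectin receptors Adipor2 and Adipor1 read 12.91 ± 0.032 and 12.21 ± 0.0045, and the metabolite receptors Ffar2 and Hcar1, for short fatty acids and for lactate, 11.85 ± 0.099 and 11.03 ± 0.11. Lepr, the leptin receptor, read 6.63 ± 0.092. Of 11 Toll-like receptors 5 were above background, with Tlr3, Tlr4 (10.01 ± 0.058) and Tlr2 (9.22 ± 0.13) the highest. Of 33 Hox genes, which keep a record of body position, 11 were above it, led by Hoxd8 (10.65 ± 0.041), Hoxa7 (9.68 ± 0.13) and Hoxd9 (8.98 ± 0.047). Glucose transporters gave 8 of 11, with Slc2a4 first and the insulin-independent Slc2a1 at 10.15 ± 0.074. Of 14 cytosolic fatty acid binding proteins 3 were above background, Fabp4, Fabp5 and Fabp12. Of the Gbp, Irg and Mx GTPases, which guard cells against microbes, 10 of 11 were above it, and Iigp1 was the highest at 14.03 ± 0.066.

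The spread between the 3 arrays was small for nearly all genes. The median SD was 0.063 log2 units above background and 0.075 elsewhere, and it fell from 0.085 for levels of 6 to 8 to 0.021 for levels of 14 or more. The highest value on these arrays was 14.98, and whether signals near it are compressed was not tested. Among genes above background only Laptm5 exceeded 0.5, at 10.78, 10.86 and 9.81. After it the largest SDs above background belonged to Nxt2, Ifi204, Ppp2r3a, Ninl, Dock4, Tspyl1, Colec12, Prkaa1 and Rtn4rl1. The interferon-induced DNA sensor Ifi204 read 10.72, 11.07 and 10.18. Nxt2, a cofactor of mRNA export, read 8.30, 9.10 and 8.29, with the second array alone high. The third array was the lowest in 8 of these 10 genes and the second the highest in 7; the exceptions at the low end were Ppp2r3a, lowest on the first array at 8.30 against 9.04 and 9.07, and Rtn4rl1, lowest on the second. Over all genes above background the third array was instead the lowest in 25.9% and the highest in 41.6%.

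**Figure D4:**
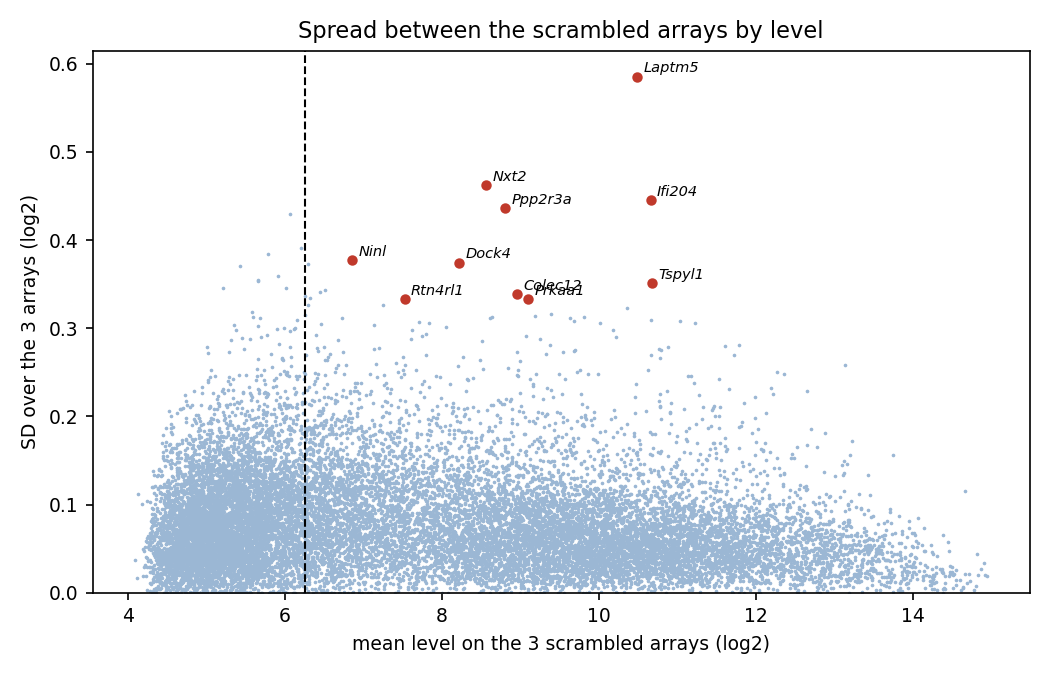
SD over the 3 scrambled arrays against the mean level of each of 18193 genes (both log2), with the background threshold dashed and the 10 genes above background of largest SD in red; unlabelled points of high SD lie below background. The SD narrows toward the highest levels, and among genes above background Laptm5 stands alone at 0.585.

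Beside the hairpin arrays, most of the scrambled profile was in place. Of 10959 genes above background on the scrambled arrays, 10517 were above it on all 9, and 87 of the 100 highest scrambled genes were among the 100 highest with each hairpin. The limma fit called 4199 of 12735 genes with hairpin 1 and 4430 with hairpin 2, or 33% and 34.8% (two-sided, adjusted p below 0.05). By direction, 23.7% of genes tested were higher and 9.23% lower with hairpin 1, and 21.5% and 13.3% with hairpin 2. The split depends on scaling: 3023 calls with hairpin 1 were higher and 1176 lower, and after quantile normalization 2454 and 1703. Of the 100 highest genes 43 were called with hairpin 1, 19 higher and 24 lower, and 32 with hairpin 2, 11 higher and 21 lower. Since the 100 were picked on the scrambled arrays that also enter the contrast, a lean toward lower values is built in. These counts also depend on the estimate of the spread: without the mean-variance trend they were 15 and 20, and without scrambled repeat 1 or without scrambled repeat 2 the hairpin 1 count was 27 each time.

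Among the 100 highest genes, the largest called differences with both hairpins were in 4 genes known to respond to interferon. Iigp1 was at 12.76 ± 0.20 with hairpin 1 and 10.44 ± 0.10 with hairpin 2 against 14.03 ± 0.066 (log2 differences -1.26 and -3.59, SE 0.082, limma adjusted p = 1.56e-08 and 2.16e-14). Ifit3 was at 13.54 ± 0.19 with hairpin 1 and 11.44 ± 0.13 with hairpin 2 against 14.54 ± 0.015, the latter a log2 difference of -3.11 (SE 0.079, limma adjusted p = 1.27e-07 and 6.05e-14), and Rtp4 differed by -0.51 and -3.16 (SE 0.064, limma adjusted p = 2.09e-05 and 1.10e-14). Ly6e differed by -0.92 and -1.72 (SE 0.071, limma adjusted p = 1.14e-07 and 2.12e-11). Lamp1, the lysosomal membrane protein, fell by 0.46 with hairpin 1 (SE 0.036, limma adjusted p = 1.27e-07), whereas with hairpin 2 it read 14.19 against 14.25. Ifitm3, which blocks virus entry, fell by 0.75 with hairpin 2 (SE 0.044, limma adjusted p = 1.45e-09), and with hairpin 1 it read 14.09 against 14.46.

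The place of the interferon-induced list moved with these genes, from the 94.1st percentile on the scrambled arrays to the 84.9th with hairpin 1 and the 65.9th with hairpin 2. The class I list went from 97.0 to 95.4 and 92.7, while the fibroblast list stood at 72.1, 76.6 and 82.0. The lists of lipid synthesis (97.0, 97.2 and 97.3), lipid uptake and droplet (95.3, 95.4 and 95.1) and adipokines (85.1, 85.5 and 85.2) had medians within 1 point, which does not mean that their members were unchanged. Of 17 adipokines tested, 7 were higher and 1 lower with hairpin 1, and 6 and 3 with hairpin 2. Of 23 lipid synthesis genes, 8 were higher and 2 lower, and 8 and 3. Of 26 genes of lipid uptake and the droplet, 3 were higher and 3 lower, and 4 and 7. In all, 47.1% and 52.9% of the adipokines, 43.5% and 47.8% of lipid synthesis and 23.1% and 42.3% of lipid uptake were called. The shares over all genes tested were 33% with hairpin 1 (23.7% higher, 9.23% lower) and 34.8% with hairpin 2 (21.5% and 13.3%). With lists this small, no difference from these shares is claimed. The largest differences in these lists reached 1.83 log2 units. Hybridization controls spiked into the samples also differed, with bioB at 7.37 to 7.94 on the scrambled arrays, 7.76 to 8.80 with hairpin 1 and 7.83 to 9.38 with hairpin 2. Signs of RNA quality moved with the groups too. The 3′ minus 5′ difference of Pcx was 4.37 to 4.58 on the scrambled arrays, 4.65 to 4.78 with hairpin 1 and 4.84 to 5.27 with hairpin 2, and that of Tfrc 2.56 to 2.82, 2.81 to 3.01 and 2.85 to 3.20 (log2). Those of Actb and Gapdh overlapped between the scrambled arrays and each hairpin. The 18S ribosomal RNA control read 10.11 to 10.33, 9.50 to 9.94 and 8.17 to 10.13. The part of these values in the list positions and in the differences of single genes was not tested.

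**Figure D5:**
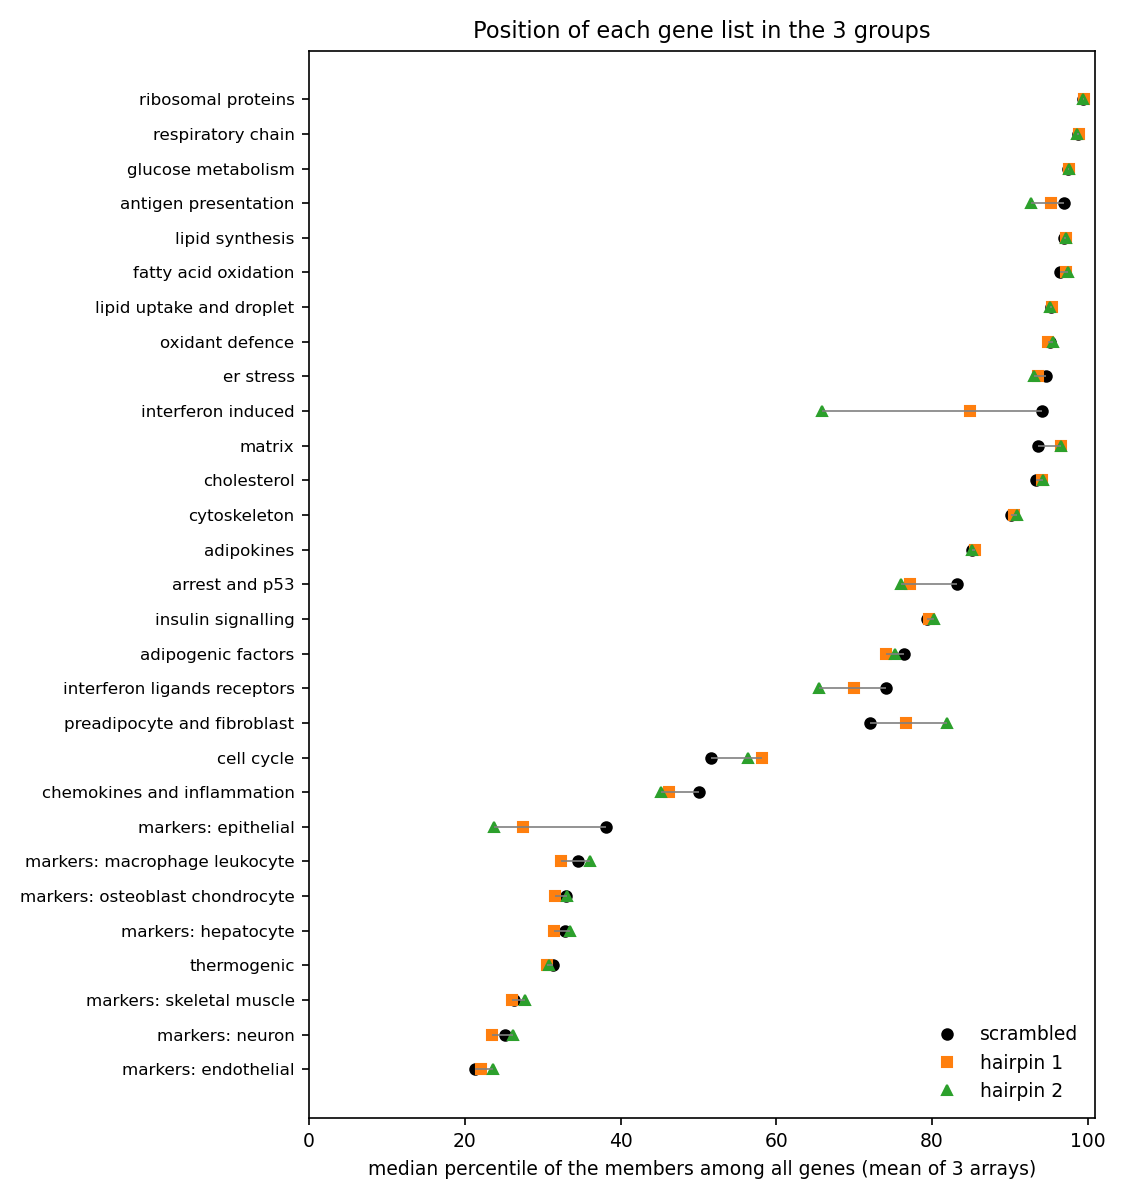
Median percentile of the members of each gene list among all 18193 genes, for the scrambled, hairpin 1 and hairpin 2 means (3 arrays each), with a line joining the groups. The interferon-induced list spans from 94.1 with the scrambled hairpin to 65.9 with hairpin 2, and the medians of the lipid and respiratory chain lists lie within about 1 point.

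Few genes were over the threshold in 1 kind of array only. A level under it does not show that a gene is absent, and genes near it can enter such a set with little difference. There were 21 genes above background on all 3 scrambled arrays and on none of the 6 hairpin arrays, of which limma called 19 of the 20 tested with each hairpin; the set was chosen by the same values, so these calls are a description. Plscr2, a phospholipid scramblase, was the highest, at 9.20, 9.01 and 8.75 against means of 5.00 ± 0.13 and 4.78 ± 0.078. Next among named genes came the collectin Colec11 at 8.75 ± 0.16, Ifi207 at 8.36 ± 0.046 and H2-T24 at 8.12 ± 0.20. Oasl1, Oas3, Krt18 and Esrp1 were also in the set. So was Cldn3, near the threshold at 6.28 ± 0.052 against 6.29 ± 0.13 with hairpin 1 and 6.14 ± 0.15 with hairpin 2. The reverse held for 23 genes, which include Birc5 and Tk1, genes of dividing cells, and Itgb2, a leukocyte integrin chain, at 6.14 ± 0.060 on the scrambled arrays and 6.74 ± 0.070 and 8.18 ± 0.11 with the hairpins.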

How the data were processed

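The deposited log2 values come from an Affymetrix mouse array and were made by the authors with RMA, per the submitters' processing notes; the version and genome build are not given in the sources used here. RMA corrects for background, sets the arrays to 1 distribution and joins the probes of a set, which can narrow the spread between arrays. Per the labels' protocols, a NuGEN kit amplified the RNA before biotin labelling. Of 45101 probe sets, 64 controls, 9160 without a symbol and 932 with several were left out of the gene levels. A gene was read by its probe set of highest 9-array mean, and 6 older symbols were mapped by hand. The threshold, percentiles and counts were computed with Python 3.11.15 and pandas 2.3.3.

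Hairpin contrasts used limma 3.58.1 in R 4.3.3 (lmFit on all 9 arrays, eBayes with trend) on the 12735 genes with a mean at or above the 30th percentile, 5.72. Adjustment was by Benjamini-Hochberg over all of these genes. The scripts were tested on simulated data. The number of arrays, 3 per group, limits the precision. Alternatives were the mean of all probe sets or the brightest on scrambled arrays, quantile normalization, other background genes and percentiles (90 and 99), no filter, no trend, a replicate block and leaving out arrays.

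Genes named were drawn from the 40 highest; the 8 highest and 4 lowest of each list, or, for other cell types, all above background; the adipocyte markers; the 10 most variable; and, for each hairpin, the 5 largest called differences among the 100 highest. Other genes, the families and the motifs were picked with their values in view. The members and lists were chosen with earlier results of these data known. Coordinates are given for the RefSeq promoters alone.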

Additional observations from a re-analysis of the deposited data

Results flagged for a closer look

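Of the 9160 probe sets that name no gene symbol, 2506 (27.4%) were above background on all 3 scrambled arrays, and 19 of them read at least as high as the last of the 100 highest genes. Of the 932 probe sets that name several symbols, 563 (60.4%) were above background. Neither kind enters the gene levels, and they are listed because they carry signal outside the genes described; the share for probe sets with 1 symbol was 54.9%.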

How the results depend on the processing

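The count of genes above background ran from 9781 to 11779 over the alternatives and the count of shared genes among the 100 highest from 89 to 94; leaving out 1 scrambled array gave 10999 to 11106 and 93 to 95, the latter over 2 arrays. Quantile normalization keeps the order of genes within an array, so it could not test either count. Small marker lists moved: averaging all probe sets left 0 neuron and 2 hepatocyte markers above background; the 99th percentile left 0 endothelial, 1 epithelial, 1 skeletal muscle, 0 neuron and 2 hepatocyte markers; keratin-associated protein and defensin genes as background left 0, 1 and 1 for endothelium, epithelium and neurons and 2 for hepatocytes. Without the trend, 15 (hairpin 1) and 20 (hairpin 2) of the 100 highest genes were called; without 1 array in turn the counts were 27 to 48 and 27 to 31. The list medians moved most for fibroblast genes, from 72.1 to 60.6 with the mean of all probe sets.

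With the repeat number as a replicate block the calls were 4281 and 4470. Of 9 same-number pairs, 3 correlated over 0.1 (range -0.293 to 0.25), and pairs of different numbers ran from -0.323 to 0.31. No pairing by number was seen. Deviations from a mean of 3 arrays are tied to each other, so these correlations cannot decide whether the repeats were paired. The counts within the 100 highest genes and the values of single genes under other settings were added after the data had been seen. Adipoq, Fabp4 and Lpl read near 14.98, the highest value on the scrambled arrays, and whether differences are compressed there was not tested. No difference of Adipoq, Fabp4 or Lpl from the scrambled level was called, and its sign turned in 7 cases (log2). Averaging probe sets gave Fabp4 0.0628 (hairpin 1) and -0.0491 (hairpin 2) and Lpl -0.000815 (hairpin 1). Quantile normalization gave Adipoq 0.0212 (hairpin 1) and 0.0297 (hairpin 2). For hairpin 2, leaving out 1 array in turn gave Adipoq -0.0187 to 0.00152, above 0 only without scrambled repeat 2 and, at 3.4e-05, without hairpin 2 repeat 3.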
